A study of Mus musculus with 9 samples.

Results

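Kalrn, Camk2a, Camk2b, Dlg4, Shank1, Shank2, Shank3, Homer1 and Nrgn are 9 genes listed here as postsynaptic density genes. Their counts were followed through 9 RNA sequencing libraries of mouse cerebral cortex. The 9 were chosen by symbol from 32531 gene rows. 8 were taken as genes of the postsynaptic density. Kalrn was added for its level in the ES IPs, so its values in those libraries are given as a description with no test. The mice were adult, untreated controls of the Abcb1a-EGFP/Rpl10a line ES3026, and every library carries this genotype. In this line a ribosomal protein tagged with EGFP (translating ribosome affinity purification, TRAP) is placed under regulatory sequence of Abcb1a, the gene of the blood-brain barrier drug efflux transporter, so that polysomes of the cells that express the transgene can be pulled down with antibodies against EGFP. 3 libraries hold immunopurified ribosome-bound RNA extracted by the investigator with the initials ES (ES IP), 3 hold the same fraction extracted by JL (JL IP), and 3 hold input RNA extracted by JL (JL input). No ES input was analysed here, and the labels do not say whether the replicates came from separate mice or pools, so p-values measure only the spread between these libraries. All libraries carry the cell type label endothelial cells, the inputs included.

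The postsynaptic density is the protein layer under the receptors of excitatory synapses, on the dendritic spines of neurons. Scaffold proteins (Dlg4, the Shank family, Homer1) hold receptors and signalling enzymes in place, the calcium-calmodulin-dependent kinase CaMKII (Camk2a and Camk2b encode its main brain subunits) is a major constituent, and kalirin, the product of Kalrn, is a guanine nucleotide exchange factor that acts on the actin of the spine. Kalrn is transcribed from several promoters into isoforms of different length. Nrgn encodes neurogranin, a small protein that binds calmodulin. Endothelial cells of brain vessels are not a known site of excitatory postsynapses.

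Stretches upstream of annotated start sites are shown for the gene with the unusual pattern, Kalrn, and for 2 members whose ES IPs all lay above the inputs. They come from RefSeq windows on GRCm38.p6, which held an entry for 6 of the 9 members (Kalrn, Camk2b, Dlg4, Shank3, Homer1 and Nrgn). They were searched on both strands for TGACG, the core of the cyclic AMP response element, and for GGGCGG, the GC box. Capitals mark matches, which are a description of the letters and not of bound sites. The Kalrn stretch lies at chr16:34514087-34514277 on the minus strand, has 191 bases, ends 59 bases before the RefSeq start site and held neither motif. The Camk2b stretch lies at chr11:6065749-6065998 on the minus strand and held 3 GGGCGG matches, some of them overlapping, with a GC content of 78.4%. The Homer1 stretch lies at chr13:93303507-93303756 on the plus strand and held 3 TGACG matches. It is 1 of 2 Homer1 windows and was chosen with its matches known; the other, at chr13:93307784-93308033, held neither motif. Of 3 Dlg4 windows, which overlap annotated UTR bases and are not shown, 1 held a single match to each motif and the others none. The Shank3 window, also not shown, held 4 GGGCGG matches at a GC content of 82.4%, and the Nrgn window held 1. Neither of these 2 held TGACG, and neither gene passed as higher in the ES IPs against input. GGGCGG was thus found in members that passed there and in members that did not. TGACG was found only in windows of Dlg4 and Homer1, the tested members that passed, in 1 of 3 and 1 of 2 windows. Only 6 of the 9 members had a window, and a link between motif and level was not tested.
Kalrn: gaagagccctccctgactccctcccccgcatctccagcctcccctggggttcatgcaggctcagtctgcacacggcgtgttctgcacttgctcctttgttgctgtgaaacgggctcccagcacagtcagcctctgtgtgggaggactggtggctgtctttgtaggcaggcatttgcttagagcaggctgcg
Camk2b: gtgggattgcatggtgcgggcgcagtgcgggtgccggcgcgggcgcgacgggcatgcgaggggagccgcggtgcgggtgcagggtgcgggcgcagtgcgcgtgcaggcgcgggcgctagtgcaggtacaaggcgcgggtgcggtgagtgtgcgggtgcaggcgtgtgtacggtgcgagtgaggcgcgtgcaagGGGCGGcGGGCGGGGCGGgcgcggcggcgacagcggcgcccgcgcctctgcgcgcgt
Homer1: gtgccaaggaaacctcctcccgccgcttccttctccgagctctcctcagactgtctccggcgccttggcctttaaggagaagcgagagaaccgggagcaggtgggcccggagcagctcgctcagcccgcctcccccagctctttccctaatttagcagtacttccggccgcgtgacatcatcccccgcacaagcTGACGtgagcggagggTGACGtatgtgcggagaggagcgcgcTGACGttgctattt
Of 32851 RefSeq windows of 250 bases, 17.8% held TGACG and 32.7% held GGGCGG. The GC content was 60.7% in the Kalrn stretch and 62.4% in that of Homer1, against a median of 52.4% over all windows. Each window covers 1 start site, and the GENCODE M21 annotation gives Kalrn 20 distinct transcript starts.

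Gene counts per library ran from 31987470 to 46598478, so counting error is small for every member. Levels are given in CPM, gene counts scaled to a common library total, after adjustment by TMM, edgeR's trimmed mean of M-values. Abcb1a, whose regulatory sequence drives the tag, stood at 44.9 ± 9.21 CPM in ES IP, 466 ± 21.5 CPM in JL IP and 2.16 ± 0.485 CPM in input (SD, n = 3). Rpl10a, the gene of the tagged ribosomal protein, was at 4.39 ± 2.34, 9.83 ± 0.825 and 7.60 ± 0.345 CPM in the same order. The 16 endothelial markers summed to between 1095 and 1781 CPM among ES IPs, 10404 and 10927 CPM among JL IPs and 62.2 and 69.3 CPM among inputs, with Slc2a1 the highest member. The 15 neuronal markers, led by Snap25, summed to between 17904 and 19694, 2263 and 2929, and 17340 and 18199 CPM. The ES IPs therefore held neuronal markers at about the input level, which goes against their label of endothelial cells, and also held endothelial markers far above it. Of the 16 endothelial markers 16 rose in the JL IPs against input (median log2 fold change 7.95) and 16 in the ES IPs against input (4.92), and of the 15 neuronal markers 15 fell there, whereas 6 neuronal markers rose, 3 fell and 6 did not pass the test in the ES IPs against input. The part that these differences between libraries have in the values below was not tested. Investigator, fraction and sequencing lane cannot be told apart where ES IPs are set against inputs. Where ES IPs are set against JL IPs, investigator and lane cannot be told apart. ES IP and JL libraries ran in different lanes per the file names. ES IP replicate 1 stood apart from the other ES IPs, with 12.03% of gene counts in the ribosomal RNA precursor Rn45s against 8.14% and 6.04%, and with chi-square values per degree of freedom of 178 and 217 against the others, which differed from each other by 68.2. Results that rest on it are given with and without it.

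Kalrn (chromosome 16, 33969073 to 34573532, minus strand, mm10; GENCODE M21) was the member with the highest count in every IP library. It stood at 7764, 7879 and 9278 CPM in ES IP, at 1815, 1804 and 2219 CPM in JL IP and at 373, 367 and 371 CPM in the 3 inputs. The 3 groups did not overlap, and the order was the same for every pair of libraries: ES IP, then JL IP, then input. The means were 8307 ± 843, 1946 ± 236 and 370 ± 3.21 CPM (SD, n = 3). Kalrn took 0.780%, 0.780% and 0.951% of all gene counts in the ES IPs and ranked 3 among all genes in each of them, whereas it ranked between 19 and 29 in the JL IPs and between 300 and 310 in the inputs. In the JL IPs against input, Kalrn rose by a log2 fold change of 2.40 ± 0.09 (SE), with an adjusted p of 5.97e-08 in edgeR's quasi-likelihood test. Of 17357 genes tested in that comparison 1804 had a larger log2 fold change. In the ES IPs the mean was 22.4 times that of the inputs and 4.27 times that of the JL IPs, at log2 fold changes of 4.49 and 2.18. With 24050 merged exon bases in 604 kb, Kalrn shares no exon bases with another annotated gene.

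**Figure D1:**
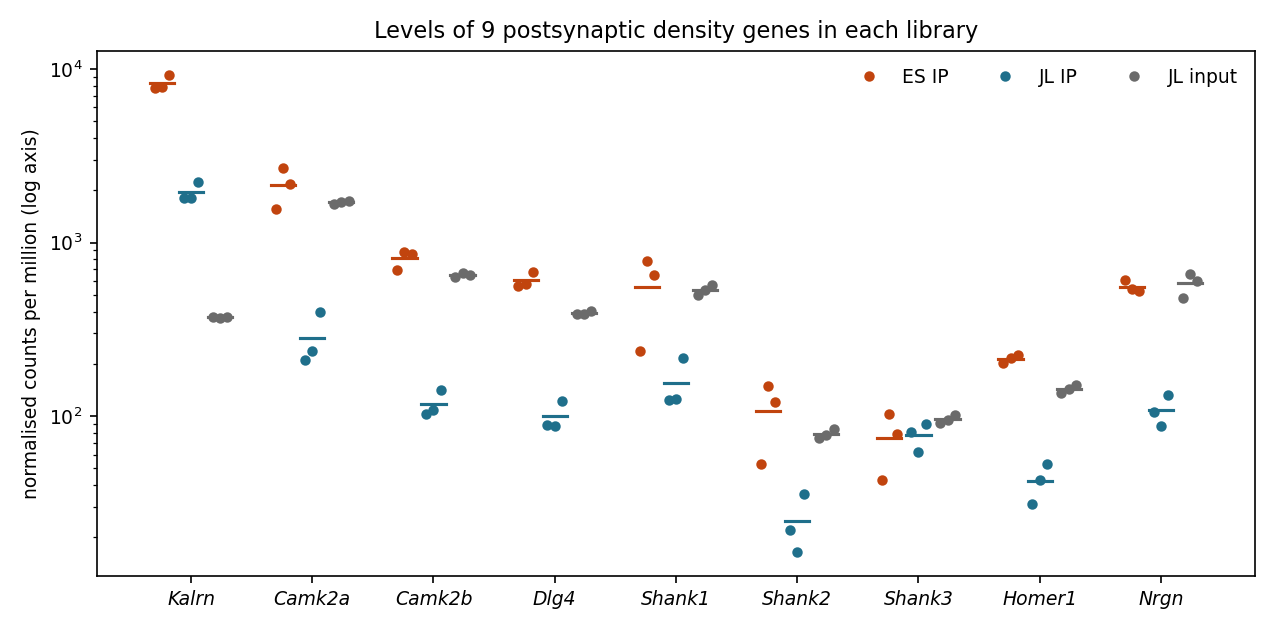
Levels of the 9 genes in each library, in CPM after TMM scaling on a log axis, by group (ES IP, JL IP, JL input). Points are libraries and lines are means, and values after ± in this caption are SD (n = 3). Kalrn goes up from input (370 ± 3.21) to JL IP (1946 ± 236) to ES IP (8307 ± 843), and no other member does.

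A pattern in which all 3 ES IPs exceed all 3 JL IPs and these exceed all 3 inputs was found in 222 of 17801 genes (1.25%). Among the members it was found in Kalrn, which was chosen for its level in the ES IPs. Earlier results of these data were known at that choice, so the test of Kalrn in the JL IPs may not be independent of it. Of the 222 genes, 173 had an input mean of at least 10 CPM, and 1 of these, Kalrn, had an ES IP mean above 1000 CPM; both cut-offs were chosen after the values were seen. The 5 genes whose log2 CPM over the 9 libraries went most closely with that of Kalrn, among 9314 expressed genes, were Rab11fip5 (Pearson r = 0.985), Mapk14 (0.982), Abcf1 (0.980), Spag7 (0.980) and Ccdc9 (0.979). Rab11fip5 went from 64.4 ± 1.33 CPM in input to 95.1 ± 4.91 in the JL IPs and 134 ± 15.0 in the ES IPs (SD, n = 3). These are much flatter profiles, because r takes the order and spacing of the groups and not the size of the change. The libraries fall into 3 groups and share their depth and scaling, so these coefficients describe a likeness and carry no test.

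Trio, the paralog of Kalrn, encodes a similar guanine nucleotide exchange factor. It stood at 137, 286 and 209 CPM in ES IP, 156, 156 and 157 CPM in JL IP and 278, 291 and 292 CPM in input. Trio fell in the JL IPs against input (log2 fold change -0.87 ± 0.06, adjusted p = 2.51e-06), the opposite direction to Kalrn. In the ES IPs its log2 fold change was 0.51 ± 0.24 against the JL IPs (adjusted p = 0.0867) and -0.44 ± 0.24 against input (adjusted p = 0.151), neither of which passed. Without ES IP replicate 1, where Trio was lowest, it was higher than in the JL IPs by 0.76 (adjusted p = 0.00124). Per kilobase of merged exon, Kalrn had 55.1, 26.8 and 43.2 times the counts of Trio in ES IP, 11.3, 11.3 and 13.7 times in JL IP and 1.31, 1.23 and 1.24 times in input. The 3 groups did not overlap in that ratio.

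Kalrn per Dlg4 gave a narrower ratio. Per kilobase it was 7.60, 7.55 and 7.51 in ES IP, 11.2, 11.3 and 9.94 in JL IP and 0.532, 0.519 and 0.510 in input. Kalrn was therefore below Dlg4 in every input and above it in every IP, and the ratio was lower in all ES IPs than in all JL IPs.

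**Figure D2:**
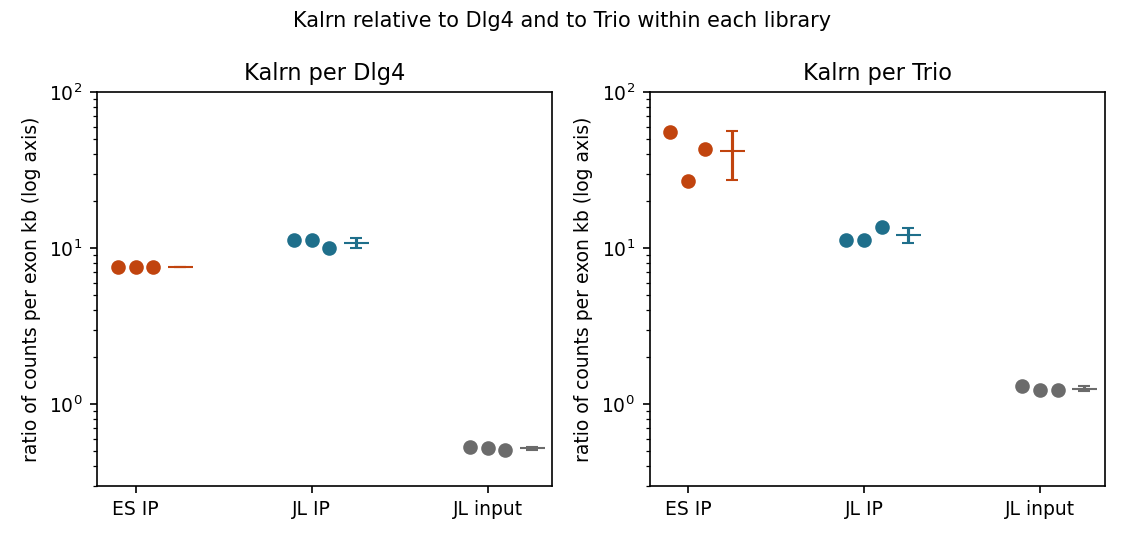
Counts per exon kilobase of Kalrn divided by those of Dlg4 (left) and of Trio (right) within each library, on a log axis. Points are libraries and crosses are means with SD. The Dlg4 ratio lies near 7.55 in the ES IPs and 0.520 in the inputs, and the Trio ratio spreads from 26.8 to 55.1 in the ES IPs.

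The CaMKII subunit genes were depleted from the JL IPs and at or near the input level in the ES IPs. Camk2a (chromosome 18, 60925618 to 60988152, plus strand) stood at 1552, 2705 and 2179 CPM in ES IP, 211, 237 and 397 CPM in JL IP and 1661, 1711 and 1746 CPM in input. The ES IPs spread across the inputs, and all JL IPs lay below both. Camk2a fell in the JL IPs against input by 2.60 ± 0.22 on the log2 scale (adjusted p = 7.06e-06) and was higher in ES than JL IPs by 3.01 ± 0.30 (adjusted p = 8.31e-06). Camk2b (chromosome 11, 5969644 to 6066362, minus strand) stood at 692, 880 and 861 CPM in ES IP, 103, 109 and 142 CPM in JL IP and 634, 665 and 652 CPM in input. Here all ES IPs lay above all inputs, by a small margin. Its log2 fold change was -2.46 ± 0.12 for JL IP against input (adjusted p = 2.25e-07) and 2.87 ± 0.20 for ES against JL IP (adjusted p = 1.25e-06). Against input, the ES IP values of 0.33 ± 0.21 for Camk2a (adjusted p = 0.208) and 0.32 ± 0.14 for Camk2b (adjusted p = 0.09) did not pass. The ratio of Camk2a to Camk2b per exon kilobase was alike in the 3 groups, at 3.20 ± 0.517 in ES IP, 2.87 ± 0.496 in JL IP and 3.21 ± 0.0633 in input (SD, n = 3), differences within the spread between IP libraries.

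Nrgn (chromosome 9, 37544492 to 37552904, minus strand) had the shortest exons of the members, 1453 bases. It stood at 607, 540 and 525 CPM in ES IP, 105, 87.4 and 132 CPM in JL IP and 478, 663 and 604 CPM in input. ES IPs and inputs overlapped, and the JL IPs lay apart below them. The log2 fold change was -2.43 ± 0.17 for JL IP against input (adjusted p = 2.47e-06), 2.45 ± 0.20 for ES against JL IP (adjusted p = 2.22e-06) and -0.06 ± 0.15 for ES IP against input (adjusted p = 0.755). Nrgn was the 1 member whose highest ES IP value was in replicate 1, the library that was lowest for the other 8.

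Dlg4 and Homer1 were the tested members above input in the ES IPs. Dlg4 (chromosome 11, 70016942 to 70047522, plus strand) encodes the scaffold that binds NMDA receptors, and stood at 563, 575 and 680 CPM in ES IP, 89.3, 87.8 and 123 CPM in JL IP and 386, 389 and 401 CPM in input. Homer1 (chromosome 13, 93299635 to 93405129, plus strand) encodes the adaptor that links metabotropic glutamate receptors to Shank, and stood at 203, 216 and 225 CPM in ES IP, 31.1, 42.6 and 52.7 CPM in JL IP and 136, 144 and 151 CPM in input. For both genes every ES IP exceeded every input, and every JL IP lay below. The rise over input was 0.63 ± 0.13 on the log2 scale for Dlg4 (adjusted p = 0.00456) and 0.58 ± 0.12 for Homer1 (adjusted p = 0.0036). Against input the JL IP values fell by 1.97 ± 0.13 for Dlg4 (adjusted p = 1.42e-06) and by 1.77 ± 0.17 for Homer1 (adjusted p = 1.54e-05). ES IPs exceeded JL IPs by 2.68 ± 0.20 for Dlg4 (adjusted p = 1.64e-06) and by 2.43 ± 0.21 for Homer1 (adjusted p = 3.57e-06). Homer1 per Dlg4, per exon kilobase, was 0.393 ± 0.0243, 0.466 ± 0.0762 and 0.405 ± 0.0144 in ES IP, JL IP and input (SD, n = 3), differences within the spread of the JL IPs.

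The Shank genes, which encode scaffolds that bridge the receptor layer and the actin of the spine, differed among themselves. Shank1 (chromosome 7, 44310253 to 44360572, plus strand) stood at 236, 784 and 653 CPM in ES IP, 124, 125 and 216 CPM in JL IP and 501, 534 and 570 CPM in input. Shank2 (chromosome 7, 144001928 to 144424494, plus strand) stood at 52.8, 148 and 121 CPM in ES IP, 22.0, 16.5 and 35.8 CPM in JL IP and 74.7, 77.4 and 84.3 CPM in input. Shank3 (chromosome 15, 89499623 to 89560261, plus strand) stood at 42.7, 102 and 78.9 CPM in ES IP, 81.0, 62.4 and 89.9 CPM in JL IP and 91.3, 94.9 and 102 CPM in input. For Shank1 and Shank2, ES IP replicate 1 lay below every input and replicates 2 and 3 above, while for Shank3 the ES IPs overlapped both other groups. In the JL IPs against input Shank1 fell by 1.79 ± 0.20 (adjusted p = 5.67e-05) and Shank2 by 1.67 ± 0.24 (adjusted p = 0.000256) on the log2 scale. Shank3 had a log2 fold change of -0.30 ± 0.13 there (adjusted p = 0.058), although each JL IP lay below each input. It passed under some other settings, with -0.56 under library size alone (adjusted p = 0.00444) and -0.41 without JL IP replicate 3 (adjusted p = 0.0136). Under library size alone the median of all genes also shifted, by -0.26. Shank3 did not pass with all libraries in one fit (adjusted p = 0.294), without the filter on low counts (adjusted p = 0.0577), or without any other single library. ES against JL IP, Shank1 was higher by 1.93 ± 0.39 (adjusted p = 0.00154) and Shank2 by 2.20 ± 0.38 (adjusted p = 0.000487), while Shank3 was at 0.03 ± 0.28 (adjusted p = 0.945), a value whose sign changed with the setting. Against input the ES IP values were 0.06 ± 0.37 for Shank1 (adjusted p = 0.899), 0.45 ± 0.32 for Shank2 (adjusted p = 0.268) and -0.36 ± 0.27 for Shank3 (adjusted p = 0.295). 3.22% of Shank1 exon bases and 2.95% of those of Shank3 are shared with a gene on the opposite strand, and whether counting used strand is not given in the sources used here.

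The make-up of the Shank genes per exon kilobase was therefore different in the JL IPs. Shank3 made up 33.9 ± 4.97% of the summed Shank level there, against 12.1 ± 2.17% in the ES IPs and 15.2 ± 0.148% in the inputs (SD, n = 3). Shank1 made up 57.3 ± 4.73%, 73.6 ± 3.06% and 74.1 ± 0.259% in the same order of groups. With 3 against 3 libraries an exact permutation test cannot go below 0.1, so no test of these shares is given.

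**Figure D3:**
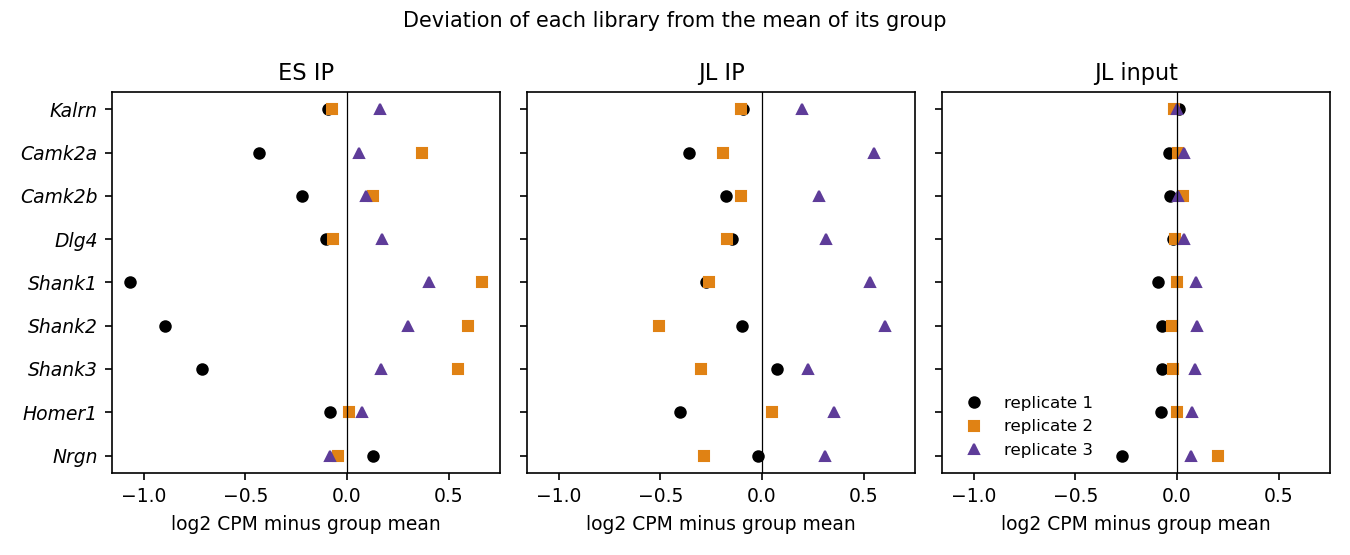
Deviation of each library from its group mean in log2 CPM for the 9 genes, with 1 panel per group and a symbol per replicate. In the ES IPs replicate 1 is far to the left for Shank1 (-1.07), Shank2 (-0.90), Shank3 (-0.72) and Camk2a (-0.43), and in the JL IPs replicate 3 is highest for 9 of 9 genes.

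The same libraries were low or high across the members. ES IP replicate 1 was lowest in 8 of the 9 members. The highest ES IP value exceeded the lowest 3.32 times for Shank1, 2.81 times for Shank2, 2.40 times for Shank3 and 1.74 times for Camk2a. In that library the excitatory neuron markers, led by Slc17a7, summed to 915 CPM against 1277 and 1230 in the others. The astrocyte markers, mostly Slc1a2, summed to 873 CPM against 1415 and 1459, and the 15 neuronal markers to 19615 CPM against 19694 and 17904. Snap25 made up most of the neuronal sums, at 12456 CPM against 11407 and 10506. Other neuronal markers went both ways in that library, such as Map2 (267 CPM against 465 and 453) and Uchl1 (895 CPM against 633 and 548). JL IP replicate 3 was highest in all 9 members and had the highest sum of neuronal markers among the JL IPs, 2929 CPM against 2263 and 2289. The part of these sums in the members' values was not tested, and in such bulk samples fewer cells of a type and less RNA per cell cannot be told apart. Nrgn, the member with the shortest exons, was highest in ES IP replicate 1. Whether RNA quality or transcript length has a part in the spread between libraries was not tested.

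Counted over the tested members, 1 of 9 rose (Kalrn) and 7 of 9 fell in the JL IPs against input. Of all genes tested there 36.7% rose and 37.4% fell, so a fall of 7 in 9 stands beside a background in which a fall is common. The 3 JL IPs did not overlap the 3 inputs in 8 members on the low side and 1 on the high side, against 42.2% and 38.7% of all genes. ES against JL IP, 7 of 8 tested members rose and none fell, against 29.7% and 28.2% of all genes, and the same 7 did not overlap (32% of all genes). ES IP against input, 2 of 8 rose and none fell, against 26.9% and 25.3% of all genes, and 3 did not overlap, all higher (32% of all genes), a share near the background. All 3 ES IPs exceeded the other 6 libraries in 3 of the 8 members without Kalrn (Camk2b, Dlg4 and Homer1), beside 10.2% of all genes; Kalrn, which was chosen for this, did so too. Without ES IP replicate 1, 6 of 8 rose in this last comparison, beside 32.4% of all genes tested in that setting, with Camk2a at 0.53 (adjusted p = 0.00136), Camk2b at 0.43 (adjusted p = 0.000784), Shank1 at 0.44 (adjusted p = 0.0037) and Shank2 at 0.79 (adjusted p = 0.000113). The median log2 fold change of the 8 members without Kalrn was -1.88, 2.44 and 0.33 in JL IP against input, ES against JL IP and ES IP against input, beside -0.09, 0.03 and 0.00 over all genes tested. Each of these comparisons shares a group with each of the others. The counts of 0 members lower in both comparisons with ES IPs were also 0 at an unadjusted p under 0.05 in edgeR, with DESeq2 and with limma-voom.

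**Figure D4:**
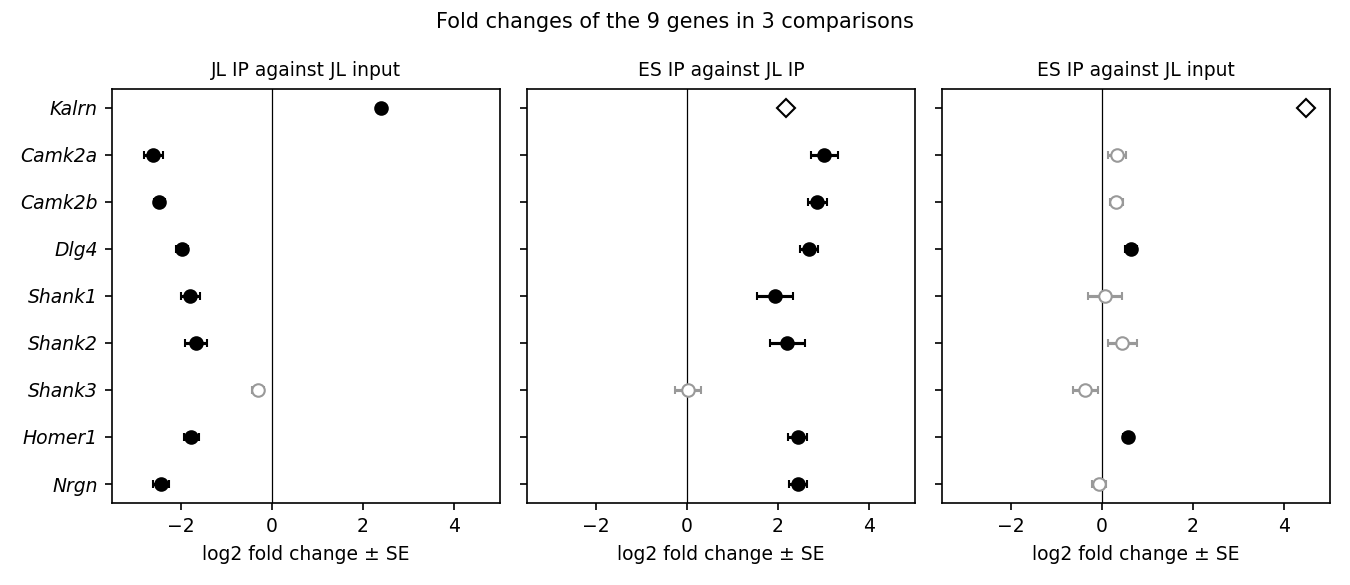
Log2 fold changes of the 9 genes in the 3 comparisons, with SE as bars; black points passed the test, open grey points did not, and open diamonds (Kalrn where ES IPs are compared) had no test. Kalrn lies at 2.40 in JL IP against input, where the other 8 lie between -2.60 and -0.30.

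Compared per exon kilobase, the order of the members changed with the fraction. In input the order was Nrgn (400.2 ± 65.1 CPM per kilobase), Camk2a (229 ± 5.77), Camk2b (71.3 ± 1.69), Shank1 (50.9 ± 3.27), Dlg4 (29.6 ± 0.594), Kalrn (15.4 ± 0.134), Homer1 (11.99 ± 0.642), Shank3 (10.5 ± 0.601) and Shank2 (7.31 ± 0.460), and no neighbours overlapped. In the JL IPs Kalrn (80.9 ± 9.82) and Nrgn (74.5 ± 15.5) came first with overlapping values, followed by Camk2a (37.8 ± 13.5). There Shank1 overlapped Camk2b, Shank3 overlapped Dlg4, and Homer1 overlapped Shank2, which was lowest at 2.30 ± 0.920 CPM per kilobase. In the ES IPs Nrgn (384 ± 30.2), Kalrn (345 ± 35.0) and Camk2a (287 ± 77.4) came first, Kalrn overlapping both of its neighbours. Shank1 (53.0 ± 27.2) overlapped Dlg4 (45.7 ± 4.87), and Shank2 overlapped Shank3, which was lowest at 8.13 ± 3.27 CPM per kilobase. Kalrn thus moved from the sixth place in input to the first or second in the IPs. Merged exon length counts every annotated isoform, so the level per kilobase of a gene with many isoforms, such as Kalrn, depends on which of them are in use, which was not measured.

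Among 69 other postsynaptic density genes grouped by role, 4 rose, 62 fell and 3 did not pass in the JL IPs against input. Of all genes tested there 36.7% rose and 37.4% fell. The median of the 69 was -1.97, so Kalrn went against most of the list. The genes that rose with it were Homer3 (2.70 ± 0.21), the exchange factors Tiam1 (1.86 ± 0.09) and Arhgef2 (0.91 ± 0.10), and the Rap regulator Sipa1l2 (1.85 ± 0.10). Tiam1, an activator of the GTPase Rac, stood at 148, 179 and 189 CPM in ES IP, 365, 375 and 352 CPM in JL IP and 88.7, 106 and 108 CPM in input, so its highest group was the JL IPs, unlike Kalrn. The 3 genes that did not pass were Iqsec2 (-0.24), Iqsec1 (-0.16) and Cttn (0.09). Every receptor gene on the list fell: the AMPA receptor subunit genes lay between -2.97 (Gria2) and -2.50 (Gria4), their auxiliary proteins between -2.75 (Cacng2) and -2.05 (Shisa6), the NMDA receptor subunits between -2.85 (Grin2a) and -1.85 (Grin1), and Grm5, a metabotropic receptor, at -2.51. Adhesion proteins lay between -2.87 (Lrrtm2) and -0.87 (Lrrc4b). Scaffolds of the Dlg and Dlgap families lay between -2.85 (Dlg2) and -0.22 (Dlgap4, adjusted p = 0.0441). Other Homer and CaMKII genes that fell were Homer2 (-2.11) and, least, Camk2d (-1.14), and the CaMKII inhibitors Camk2n2 and Camk2n1 fell to -1.95 and -0.998. Exchange factors and GTPase-activating proteins that fell lay between -2.13 (Tiam2) and -0.30 (Arhgef7), Ras, Rap and Arf regulators at -1.10 (Agap2) or below, spine actin proteins between -2.52 (Wasf1) and -0.63 (Ppp1r9b), and anchoring and signalling proteins between -3.14 (Akap5) and -1.41 (Ppp3cb).

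ES against JL IP, 59 of the 69 genes rose, 3 fell and 7 did not pass, beside 29.7% of all genes higher and 28.2% lower. The median of the 69 was 1.67. Those that fell were Homer3 (-2.30 ± 0.35), Sipa1l2 (-1.27 ± 0.20) and Tiam1 (-1.003 ± 0.17), 3 of the 4 that had risen in the JL IPs against input, a comparison that shares the JL IPs with this one. Not passing were Shisa6 (0.09), Lrrc4b (0.16), Rapgef4 (0.23), Arhgef2 (-0.48), Trio (0.51), Bcr (0.52) and Iqsec1 (0.57). The rises ran, by role, from 1.37 (Gria2) to 2.10 (Gria1) for AMPA receptor subunits, from 0.87 (Cnih2) to 2.44 (Cacng8) for their auxiliary proteins, from 1.22 (Grin1) to 2.53 (Grin2b) for NMDA receptor subunits, and from 0.96 (Il1rapl1) to 1.87 (Lrrc4) for adhesion proteins. The metabotropic receptor gene Grm5 rose by 1.36. They ran from 0.94 (Dlgap4) to 3.35 (Dlg3) for scaffolds, from 1.38 (Camk2d) to 2.31 (Camk2g) for CaMKII genes, from 1.28 (Camk2n1) to 2.02 (Camk2n2) for CaMKII inhibitors, from 1.07 (Arhgef7) to 2.76 (Arhgap32) for the exchange factors and GTPase-activating proteins, from 0.95 (Iqsec2) upwards for Ras, Rap and Arf regulators, from 0.80 (Ppp1r9b) to 3.45 (Add2) for actin proteins, and from 1.35 (Ppp3cb) to 3.55 (Arc) for anchoring and signalling proteins. Arc, an activity-regulated gene whose RNA is carried into dendrites, stood at 266, 313 and 236 CPM in ES IP, 21.5, 23.4 and 28.8 CPM in JL IP and 95.5, 108 and 110 CPM in input, with no overlap between groups.

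ES IP against input, 16 of the 69 rose, 22 fell and 31 did not pass, with a median of 0.08, beside 26.9% of all genes higher and 25.3% lower. Of 23 genes of membrane proteins (receptors, their auxiliary proteins and adhesion proteins) none rose, 19 fell and 4 did not pass, with a median of -0.83. Of 46 genes of cytoplasmic proteins 16 rose, 3 fell and 27 did not pass, with a median of 0.32. The count of 0 was also 0 at an unadjusted p under 0.05 in edgeR, with DESeq2 and with limma-voom. This pooling of roles was chosen after the values were seen, and carries no test. Without ES IP replicate 1 the calls were 2 higher and 19 lower for membrane proteins and 31 higher and 4 lower for cytoplasmic ones. Of all genes tested in that setting 32.4% were higher, and the share that was lower is not given here. In JL IP against input, which shares the inputs with this comparison, the medians were -2.49 and -1.53. The tested members, all cytoplasmic, had a median of 0.33 here.

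Within the membrane class, the genes that fell ran from -1.68 (Gria2) to -0.70 (Gria3) for AMPA receptor subunits, from -2.03 (Shisa6) to -0.73 (Cacng3) for their auxiliary proteins, and from -1.90 (Lrrtm2) to -0.79 (Lrrc4b) for adhesion proteins. Grin1 fell to -0.72 and Grin2a to -0.66, and Grm5 fell to -1.24. Gria2, the AMPA receptor subunit that limits calcium entry, stood at 253, 334 and 332 CPM in ES IP, 99.6, 118 and 159 CPM in JL IP and 963, 970 and 1017 CPM in input, so the ES IPs lay between the other groups without overlap. Cacng8 (0.07), Grin2b (-0.39), Lrrc4 (0.16) and Nlgn2 (0.16) did not pass. Within the cytoplasmic class, the largest rise was that of Arc (1.38 ± 0.14). The scaffolds rose from 0.55 (Dlgap3) to 0.95 (Dlgap2), exchange factors and GTPase-activating proteins from 0.31 (Tiam2, adjusted p = 0.048) to 0.77 (Tiam1), Ras and Rap regulators from 0.49 (Sipa1l2) upwards, and actin proteins from 0.60 (Baiap2) to 0.98 (Synpo). Those that fell were Rapgef4 (-1.06), Homer2 (-0.80) and Cttnbp2 (-0.67). The other 27 lay between -0.46 (Dlg2) and 0.77 (Abr). In this last group Abr stood at 378, 1790 and 521 CPM in the ES IPs and Ppp1r9a, an actin-binding spine protein, at 260, 1627 and 426 CPM, so ES IP replicate 2 decided their means.

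**Figure D5:**
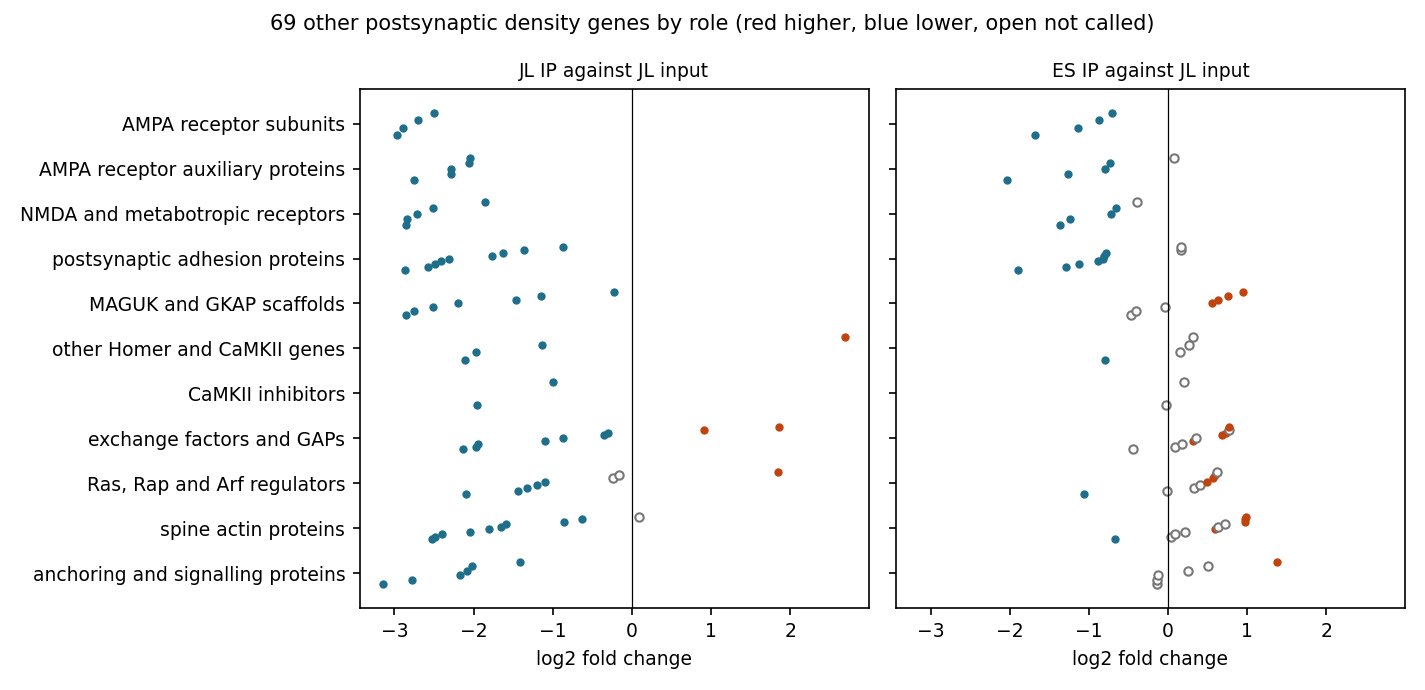
Log2 fold changes of the 69 other postsynaptic density genes by role, for JL IP against input (left) and ES IP against input (right) on a common axis, with NMDA and metabotropic receptors in 1 row. Filled red and blue points passed the test as higher or lower and open points did not. On the right the receptor and adhesion rows have no red point, and the scaffold, exchange factor, Ras and actin rows hold 15 of the 16.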

How the data were processed

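RNA sequencing of 9 cortex libraries was analysed, 3 each of ES IP, JL IP and JL input, grouped from the labels. The deposited files hold unnormalised counts of reads for each gene; the authors aligned with STAR 2.0.0e to mm10 and counted with HTSeq, per the submitters' processing notes. The sources used here do not give the annotation, strand setting or filters. Reads that HTSeq set aside as ambiguous between genes entered no gene, so genes with shared bases may have lost reads. HTSeq's special rows and the row of unnamed genes were left out. Reads without a feature came to 17.9% (ES IP), 23.5% (JL IP) and 19.3% (input) on average, and ambiguous reads to 2.48%, 2.09% and 10.8% in the same order. The part of this difference in the values above was not tested. Reads that map to several places entered no gene.

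Each pair of groups was fitted alone with edgeR 4.0.16 (R 4.3.3; filterByExpr, TMM, quasi-likelihood test), with Benjamini-Hochberg adjustment over all genes tested and a threshold of 0.05; each SE was taken as the size of the log2 change over the root of its F statistic. The method was checked on simulated data. Positions and merged exon lengths come from GENCODE M21. Alternatives were DESeq2 1.42.0, limma 3.58.1 (voom), upper quartile scaling, library size alone, no Rn45s row, no filter on low counts, all libraries in one fit, a replicate block and leaving out each library. The members and gene lists were chosen with earlier results of these data known. Named were all members, Trio, Abcb1a, Rpl10a, the 5 genes most like Kalrn (mean of at least 10 CPM), the highest marker of the lists used and, of the other postsynaptic genes, in each role and comparison the called genes with the largest and smallest change, those against the majority and those not called (in ES IP against input, cytoplasmic ones by their range). Genes named with values per library beyond that, such as Arc, Abr and Ppp1r9a, were picked after their values were seen. Values of some genes that this rule names are not reported here.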

Additional observations from a re-analysis of the deposited data

How the results depend on the processing

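Of 350 tested fold changes of the members under the alternatives, 326 kept direction and side of the threshold, 13 changed sign without passing (Shank3 in ES against JL IP, Shank1 and Nrgn in ES IP against input) and 11 newly passed. Of the 28 untested values of Kalrn 1 moved by more than the spread between replicates (ES IP against input, 4.34 under upper quartile scaling). Of 2898 values of the other postsynaptic genes 2751 kept both, 32 that did not pass changed sign, 40 newly passed, 74 no longer passed and 1 passed with the opposite sign: Dbn1, ES IP against input, at -0.39 (adjusted p = 0.0421) without ES IP replicate 2, against 0.63 with it (adjusted p = 0.325) and up to 0.98 without ES IP replicate 1. The count of other postsynaptic genes higher in ES IP than input was 10 under upper quartile scaling, against 16, and ran from 9 to 33 when a library was left out. It was 33 without ES IP replicate 1, 9 without JL input replicate 1 and 10 without JL input replicate 2 or 3. The count of members higher in ES IP than input ran from 2 to 6, 6 without ES IP replicate 1. Of all genes tested without ES IP replicate 1, 32.4% were higher in this comparison. Shares of all genes in the other settings of this section, the replicate block included, are not given here. Shank3 passed as lower in JL IP against input with DESeq2 (adjusted p = 0.0293), voom (0.0278), upper quartile scaling (0.00384) and without Rn45s (0.0453). It did not pass with all libraries in one fit (adjusted p = 0.294) or without the filter on low counts (0.0577). Nor did it pass without JL IP replicate 1 or 2 or without any 1 of the inputs. The median of all genes shifted by -0.25 (upper quartile) and -0.26 (library size alone) in JL IP against input, and by -0.15 and -0.11 in ES IP against input. The cause of these changes was not tested. With the replicate block, 1 member rose and 8 fell in JL IP against input, with Shank3 at -0.32 (adjusted p = 0.0258), and the other genes gave 4 higher and 61 lower; ES against JL IP gave 7 members higher and 60 other genes higher and 4 lower; ES IP against input gave 2 members higher and 15 other genes higher and 22 lower. Same-numbered libraries correlated in their deviations at 0.288, 0.0978 and 0.183 (JL IP and input), 0.180, -0.0798 and 0.106 (ES and JL IP), and 0.0377, 0.0274 and 0.0560 (ES IP and input). Each JL IP and each input went best with its own number, so these may be pairs, which the labels do not state. The main test does not use such pairs, and the replicate block does. ES IP replicate 2 went best with JL IP replicate 3 (0.232), and the values of ES IP and input were small, so the numbers are not shown to pair the ES IPs.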
